A study of Mus musculus with 12 samples.

Results

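Integrins, laminins and the other glycoproteins that build or contact the basement membrane were examined in cultured fibroblasts given type 2 cytokines, an inflammatory cocktail, or both. Members were the rows of the deposited count table with a symbol of an integrin alpha chain (Itga), an integrin beta chain (Itgb) or a laminin alpha, beta or gamma chain (Lama, Lamb, Lamc), together with Nid1, Nid2, Hspg2, Agrn and Vcam1. This gave 42 of the 56941 genes in the table. Of these, 33 passed the filter on low counts and were tested among 14810 genes, and 9 did not pass it. The cells were 3T3-L1, a mouse embryonic fibroblast line that can be differentiated into adipocytes, labelled as wild type in all 12 libraries. Bulk RNA-seq was available for 4 conditions with 3 libraries each, all taken 24 hours after the start of treatment. Control cells were given vehicle. The IL-4/13 condition received 50 ng/mL of each of the type 2 cytokines IL-4 and IL-13, which drive atopic dermatitis. In the Inf condition, TNF-α was used at 20 ng/mL together with IL-17A at 50 ng/mL, while the dose of IL-1β was lower, 0.5 ng/mL. The IL-4/13 + Inf condition, here called the combination, held all 5 cytokines at those doses. The labels give 1 batch for all libraries. A single cell line was used, so the spread between libraries does not include differences between animals.

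Integrins are cell surface receptors made of 1 alpha and 1 beta chain, and the pairing sets the ligand: several alpha chains that pair with β1 bind collagens or laminins, and αv chains bind the RGD sequence of fibronectin and vitronectin. Laminins are cross-shaped trimers of 1 alpha, 1 beta and 1 gamma chain that polymerise into the sheet of the basement membrane. Nidogens, perlecan (Hspg2) and agrin (Agrn) link that sheet to type IV collagen and to cell surface receptors. In skin, dermal fibroblasts secrete several of these components beneath the epidermis and around vessels. Vcam1 is a cell surface protein of the immunoglobulin family that is bound by the α4β1 integrin of T cells, eosinophils and monocytes.

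Total counts per library ranged from 13446005 to 20775769. Pairs of libraries of 1 condition differed more than counting error allows, with a chi-square per degree of freedom of 2.25 to 4.55 in the 10 pairs without Inf library 3 and of 8.02 to 8.30 in the 2 pairs with it, so Inf library 3 stood apart from its group. Levels are given as CPM, counts scaled to a common library size after TMM normalization, and 3 counts corresponded to between 0.146 and 0.221 CPM. All 9 fibroblast markers were tested, and their summed level ran from 14634 to 16689 CPM in control, 12643 to 13308 CPM with IL-4/13 alone, 12639 to 13657 CPM with Inf alone and 10625 to 10867 CPM in the combination. Single markers went against that sum: Dcn, a small collagen-binding proteoglycan, had means of 103 CPM in control, 1756 CPM with Inf alone and 1440 CPM in the combination, its relative Lum had 2.25, 22.4 and 13.5 CPM, and Pdgfrb had 269, 481 and 282 CPM. Of the adipocyte markers, 5 of 6 had no more than 3 counts in any library. The sixth, Fabp4, a fatty acid carrier, had means of 11.3 CPM in control, 16.2 CPM with IL-4/13 alone, 30.1 CPM with Inf alone and 19.4 CPM in the combination. The defining T cell marker Cd3e was at 0 in all libraries. The summed level of 7 endothelial markers was at most 2.26 CPM, that of 6 epithelial markers at most 1.25 CPM and that of 9 leukocyte markers between 2.28 and 5.10 CPM. Smooth muscle actin (Acta2), also made by activated fibroblasts, had a mean of 1284 CPM in control and 885 CPM in the combination. The part of these shifts in the results below was not tested. In bulk libraries, fewer cells that express a gene and less RNA per cell cannot be told apart.

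Promoter sequences of 3 members are shown, 1 for each main pattern described below, chosen after the values were seen. They were taken from RefSeq (GRCm38.p6), cover 250 bases before to 50 bases after the start site, and are written 5′ to 3′ on the plus strand, which is the strand of all 3 genes. Capitals mark matches on either strand to GGG and CC with any 5 bases between them, a loose form of the site bound by NF-κB, the factor downstream of TNF-α and IL-1β. A longer run of capitals holds overlapping matches.
Itgb5, chr16:33829415-33829714: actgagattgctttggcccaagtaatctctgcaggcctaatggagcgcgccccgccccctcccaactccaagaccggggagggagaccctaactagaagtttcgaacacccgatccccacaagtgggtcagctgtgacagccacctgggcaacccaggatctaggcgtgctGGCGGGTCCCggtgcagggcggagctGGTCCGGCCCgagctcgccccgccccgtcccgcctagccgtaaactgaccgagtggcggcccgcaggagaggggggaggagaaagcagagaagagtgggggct
Nid1, chr13:13437352-13437651: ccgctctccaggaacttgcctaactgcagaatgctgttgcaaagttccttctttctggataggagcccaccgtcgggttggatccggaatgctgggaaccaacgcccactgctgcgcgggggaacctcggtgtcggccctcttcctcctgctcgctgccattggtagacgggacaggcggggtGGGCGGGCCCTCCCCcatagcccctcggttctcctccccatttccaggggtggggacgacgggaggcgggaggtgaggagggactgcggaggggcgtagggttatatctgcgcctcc
Itga11, chr9:62677605-62677904: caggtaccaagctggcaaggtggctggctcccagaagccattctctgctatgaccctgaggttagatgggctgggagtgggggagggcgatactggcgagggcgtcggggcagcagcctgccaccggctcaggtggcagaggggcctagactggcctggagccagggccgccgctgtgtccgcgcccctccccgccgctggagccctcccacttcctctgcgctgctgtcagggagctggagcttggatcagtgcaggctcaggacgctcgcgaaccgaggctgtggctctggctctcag
Itgb5 held 2 matches, Nid1 held 3 overlapping ones, and none was found in the window of Itga11. Other members with a window did not all follow this order. Of those called lower with Inf alone below, Itga1, Itga3, Itga10, Lama2 and Lama5 held a match, and Itga8 and Itgb1 did not. Of those called higher, Itga2, Itga2b, Itgb7 and 1 window of Agrn held a match, and Itgb8 did not. A link between matches and the direction of change was not tested. The table held 30 promoters of 26 members, and 19 of the 30 (63.3%) held the motif, beside 50.8% of all 32851 promoters. A loose form of the site of STAT6, the factor downstream of IL-4 and IL-13 (TTC and GAA with any 4 bases between them), occurred in 2 of the 30 (6.67%) and in 6.95% of all promoters. A match to such short letters is a description of the window and not a binding site.

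Levels of different genes are compared as CPM per kb of the longest transcript in GENCODE M21. In control cells the highest member was Itgb1, the common partner of the collagen, laminin and fibronectin binding alpha chains, at 304 ± 4.69 CPM per kb (SD, n = 3). It was followed by Itgb5 at 115 ± 0.719, Nid1 at 101 ± 5.56 and Itga5, the fibronectin receptor alpha chain, at 90.2 ± 2.31 CPM per kb. The laminin chains at the top of the order were Lamb1 at 60.2 ± 4.87, Lamc1 at 38.1 ± 3.50, Lamb2 at 18.9 ± 1.87 and Lama4 at 16.3 ± 0.610 CPM per kb. Vcam1 had 57.4 ± 2.18 CPM per kb, Itgav 34.7 ± 1.31, Agrn 33.1 ± 4.60 and Hspg2 25.9 ± 6.01. Among laminin-binding alpha chains, Itga6 at 10.8 ± 0.571 and Itga3 at 9.22 ± 0.507 exceeded Itga7 at 1.54 ± 0.179 CPM per kb. The collagen-binding chains lay lower, from 0.0852 ± 0.0590 for Itga2 to 1.38 ± 0.167 for Itga10. The 9 members that did not pass the filter were Itga4, Itga9, Itgad, Itgae, Itgal, Itgam, Itgax, Itgb6 and Lama1. Lama1, the laminin chain of early embryos, had 0 counts in all libraries, Itgam had at most 1 and Itgad at most 2. Most of the longest Itgam transcript is shared with another gene, as given below. Itgae reached 12 counts, Itgb6 and Itgal reached 6, and Itga4, the partner chain of the Vcam1 receptor, reached 5. None of the 9 exceeded 0.595 CPM in any library, and no difference was detectable for them at this depth.

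Across the 33 tested members, more were called in the comparisons of cells with and without Inf than in those of cells with and without IL-4/13. Calls required edgeR adjusted p under 0.05 together with an absolute log2 fold change over 0.25. For Inf against control, 14 members were higher and 10 lower, which is 72.7% of those tested, where 31.6% of all tested genes were called, 16.3% higher and 15.3% lower. The median absolute log2 fold change was 0.69 over the members and 0.22 over all tested genes. For the combination against control, 13 members were higher and 12 lower, where 24.9% of all genes were called, 13.4% higher and 11.5% lower, and the medians were 0.81 and 0.18. For IL-4/13 against control, 3 members were higher (Itgb5 and Lamc3 among them) and 3 lower (Itga11, Itga6, Nid2), where 5.35% of all genes were called, 2.78% higher and 2.57% lower, and the medians were 0.19 and 0.11. For the combination against Inf, 3 members were higher (Itgb3, Itgb5, Lamc3) and 2 lower (Itgb2, Lama4), where 14.6% of all genes were called, 7.55% higher and 7.00% lower, so the share of members called, 15.2%, was near that of all genes. For the combination against IL-4/13, 13 were higher and 10 lower, where 24.3% of all genes were called, 13.3% higher and the remainder lower. The log2 response to IL-4/13 differed with Inf, tested as an interaction, in 1 member, Itgb5, where 3.11% of all genes were called, 1.52% higher and 1.59% lower. Without Inf library 3 the counts for Inf against control were 14 higher and 8 lower, since Itga1 and Itga8 lost their calls, and those for the combination against Inf were 3 higher and 3 lower, since Itga8 (-1.17, adjusted p = 0.021) and Lamb2 (-0.28, adjusted p = 0.0046) gained a call and Itgb2 lost its own. Lama3 and Lamc3 reached the level of the filter, that of 10 counts in the median library, in no control library and passed it through treated libraries, so their place among the tested members rests on the conditions where they were high. Lamc3 reached that level in no Inf library either. With the libraries of IL-4/13 and control alone, Lamc3 was not tested and 2 members were higher, and with those of Inf and control alone 12 were higher, since Lamc3 was not tested and Itgb3 lost its call. Libraries of the compared groups did not overlap in 25 members for Inf against control, where 48.0% of all genes did not overlap, and in 13 for IL-4/13 against control, where 26.4% did not. Such members numbered 12 for the combination against Inf (35.1% of all genes), 27 for the combination against control (46.2%) and 29 for the combination against IL-4/13 (47.4%).

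**Figure D1:**
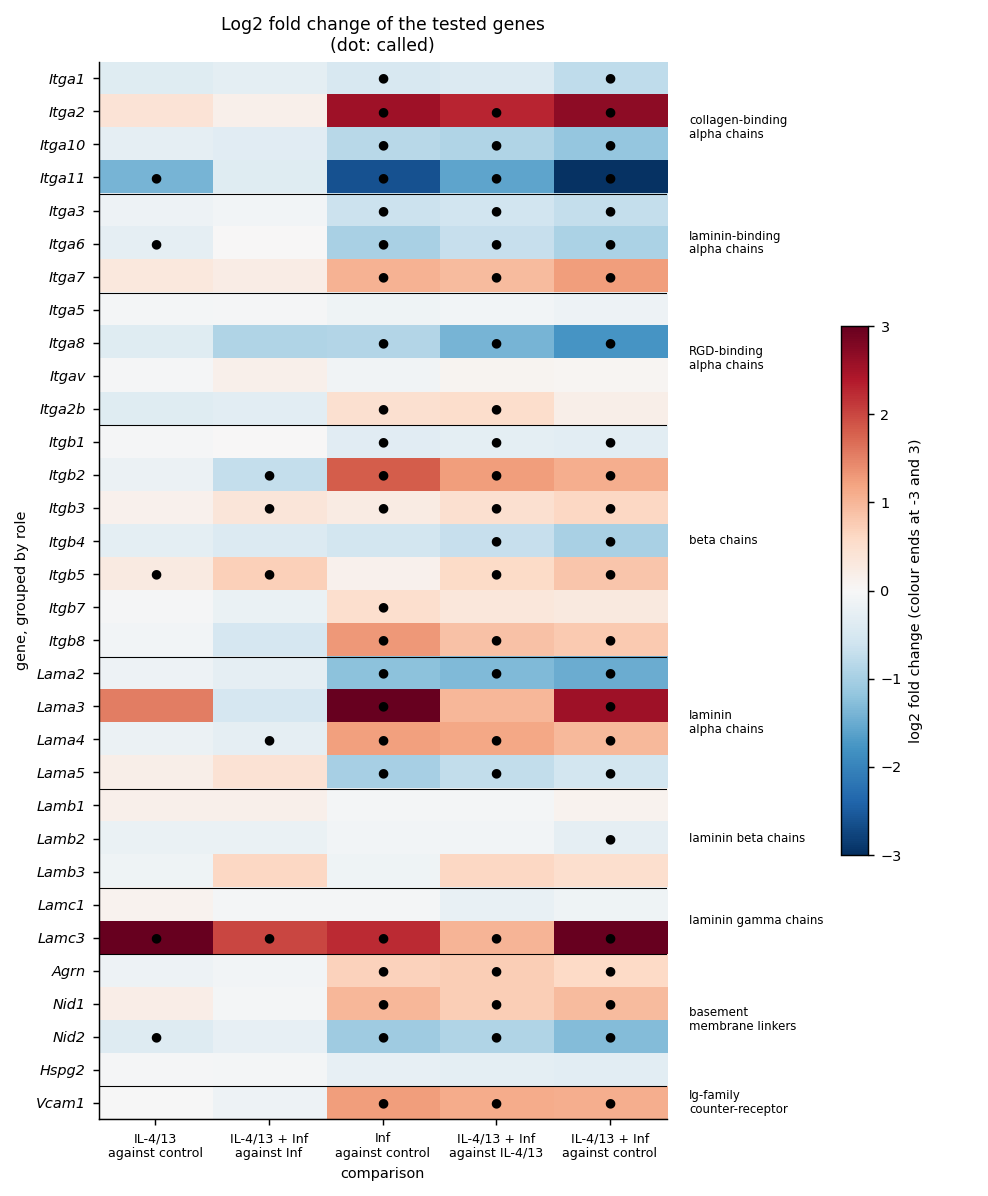
Log2 fold change of 32 tested members (rows, grouped by role) in 5 comparisons (columns), with red for higher and blue for lower in the first-named group and a dot where the member was called. The first 2 columns, the responses to IL-4/13, hold 5 and 5 dots, and the last 3, which set cells with Inf against cells without it, hold 23, 22 and 24. Colours end at -3 and 3, and those of Lamc3 against control are fitted values against libraries with 1 or 2 counts.

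The collagen-binding alpha chains moved in opposite directions with Inf. Itga11, which binds fibrillar collagen on mesenchymal cells, had 5.14, 5.21 and 4.02 CPM in control and 1.45, 2.07 and 1.98 CPM with IL-4/13 alone. With Inf it had 0.864, 1.02 and 0.424 CPM, and with the combination 0.843, 0.393 and 0.540 CPM. No treated library reached the lowest control library, and the 2 conditions with Inf overlapped each other. Itga11 was lower with IL-4/13 alone by a log2 fold change of -1.40 ± 0.26 (SE, edgeR adjusted p = 0.00044), with Inf alone by -2.60 ± 0.29 (adjusted p = 1.4e-08) and in the combination by -2.97 ± 0.31 (adjusted p = 2.3e-09). The effect of IL-4/13 on top of Inf was -0.37 ± 0.40 with an adjusted p of 0.56, at 7 to 21 counts per library. Itga2, an alternative collagen receptor chain known from epithelial cells and platelets, had 1.09, 0.310 and 0.420 CPM in control and 0.750, 1.17 and 0.515 CPM with IL-4/13 alone. It had 3.52, 4.14 and 3.09 CPM with Inf alone and 4.81, 3.15 and 3.98 CPM in the combination. All libraries with Inf lay above all libraries without it, with a log2 fold change of 2.54 ± 0.33 with Inf alone (adjusted p = 2.4e-07) and 2.28 ± 0.32 for the combination against IL-4/13 (adjusted p = 8.2e-07). The other chains, Itga1 and Itga10, were lower. Itga10, a collagen receptor of cartilage, had 7.94, 6.39 and 6.60 CPM in control, 6.05, 5.64 and 5.59 CPM with IL-4/13 alone, 4.52, 3.02 and 4.36 CPM with Inf alone and 2.68, 3.99 and 2.63 CPM in the combination. Every treated library lay below control, and Itga10 fell by 0.83 on the log2 scale with Inf alone (adjusted p = 0.00033). Of its 50-base words, 32.0% occurred in an overlapping transcript, Gm42957. That transcript had at most 1 count, so other reads of the shared stretch were counted to Itga10 or to none. Itga1, which binds type IV collagen, had 7.09, 6.57 and 7.08 CPM in control, 5.36, 5.25 and 5.66 CPM with IL-4/13 alone, 4.12, 6.14 and 4.55 CPM with Inf alone and 3.07, 4.38 and 4.93 CPM in the combination. Its treated libraries, too, all lay below control. Its log2 fold change was -0.76 ± 0.17 in the combination (adjusted p = 0.00078) and -0.47 ± 0.17 with Inf alone (adjusted p = 0.025), and the latter call was lost without control library 1 or 3 or Inf library 1 or 3 (adjusted p = 0.066 to 0.12).

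Among the laminin-binding alpha chains, those at a higher level fell with Inf and the one at a lower level rose. Itga6, the laminin receptor chain of epithelial and stem cells, had 45.9, 49.5 and 44.8 CPM in control and 44.8, 34.6 and 36.2 CPM with IL-4/13 alone. It had 22.5, 25.6 and 23.6 CPM with Inf alone and 26.2, 24.2 and 21.3 CPM in the combination. The conditions with Inf lay below those without it and overlapped each other, and the log2 fold change was -0.96 ± 0.09 both for Inf (adjusted p = 8.4e-10) and for the combination (adjusted p = 8.4e-10) against control. The call for IL-4/13 alone, -0.27 ± 0.09 with an adjusted p of 0.049, rested on overlapping libraries and was lost with DESeq2 (adjusted p = 0.060), with scaling by library size alone (adjusted p = 0.051) and without IL-4/13 library 2 (-0.20, adjusted p = 0.26), IL-4/13 library 3 (adjusted p = 0.18), any control library (adjusted p = 0.069 to 0.17) or, since all libraries entered the fit, combination library 1 or 2 (adjusted p = 0.050 and 0.069). Itga3, its relative in epithelial adhesion, had 45.3, 42.2 and 47.1 CPM in control, 39.0, 39.9 and 42.0 CPM with IL-4/13 alone, 32.96, 29.1 and 24.5 CPM with Inf alone and 25.1, 27.5 and 28.9 CPM in the combination. All treated libraries lay below control, and the fall with Inf alone was -0.64 ± 0.08 on the log2 scale (adjusted p = 2.1e-07). Itga7, the laminin receptor chain of skeletal muscle, had 6.80, 5.40 and 6.36 CPM in control and 7.13, 7.65 and 8.45 CPM with IL-4/13 alone. It had 14.2, 12.4 and 11.8 CPM with Inf alone and 14.7, 14.2 and 15.7 CPM in the combination. All libraries with Inf lay above all libraries without it, and Itga7 was higher by a log2 fold change of 1.04 ± 0.12 with Inf alone (adjusted p = 3.1e-08) and of 1.26 ± 0.12 in the combination (adjusted p = 4.9e-10).

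The alpha chains that recognise RGD motifs were called only where they were low. Itga5 had means of 398 CPM in control, 382 CPM with IL-4/13 alone, 366 CPM with Inf alone and 358 CPM in the combination and was called in no comparison, with log2 fold changes against control from -0.15 to -0.06. Itgav, the shared chain of the αvβ1, αvβ3, αvβ5, αvβ6 and αvβ8 receptors, had means of 245, 240, 229 and 256 CPM in the same order and was called in none either. Its 95% interval for IL-4/13 against control ran from -0.12 to 0.06 on the log2 scale. Differences of Itga5 for the combination against control (-0.15, adjusted p = 0.0049) and of Itgav for the combination against Inf (0.16, adjusted p = 0.012) lay under the threshold of size. Itga8, the receptor chain for nephronectin, had 1.86 to 2.63 CPM in control, 1.55 to 1.94 CPM with IL-4/13 alone, 0.667 to 1.53 CPM with Inf alone and 0.450 to 0.877 CPM in the combination. It was lower in the combination than in control by -1.77 ± 0.34 (adjusted p = 0.00011) and with Inf alone by -0.88 ± 0.31 (adjusted p = 0.022), the latter call being lost without Inf library 3 (-0.60, adjusted p = 0.14) or control library 1 (adjusted p = 0.11). Itga2b, the chain of the platelet fibrinogen receptor, had 4.69, 4.16 and 4.02 CPM in control, 3.38, 3.05 and 3.68 CPM with IL-4/13 alone, 6.38, 6.67 and 4.91 CPM with Inf alone and 5.01, 5.12 and 4.39 CPM in the combination. Libraries of the combination overlapped both control and Inf. Itga2b was higher with Inf alone than in control by 0.48 ± 0.17 (adjusted p = 0.018), and that call was lost without Inf library 1 or 2 or control library 2 or 3 (adjusted p = 0.051 to 0.096). Its call for the combination against IL-4/13, 0.53 ± 0.18 (adjusted p = 0.020), was lost without any 1 of the first 2 libraries of either condition (adjusted p = 0.055 to 0.081).

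Itgb5, the beta chain of the vitronectin receptor αvβ5, was the member whose response to IL-4/13 differed with Inf. It had 378, 381 and 377 CPM in control and 452, 453 and 465 CPM with IL-4/13 alone. It had 422, 413 and 407 CPM with Inf alone and 688, 672 and 680 CPM in the combination. The 4 conditions did not overlap, in the order control, Inf, IL-4/13 and the combination. IL-4/13 raised Itgb5 by a log2 fold change of 0.27 ± 0.04 without Inf (edgeR adjusted p = 6.2e-06) and of 0.71 ± 0.04 with Inf (adjusted p = 4.3e-15). The difference Inf against control, 0.13 ± 0.04, had an adjusted p of 0.0060 but lay under the threshold of size. On the scale of CPM, IL-4/13 alone added 77.9, Inf alone 35.4 and both together 301 CPM to the control mean. The product of the single folds was 1.32, and the observed fold was 1.79. The interaction was 0.45 ± 0.05 on the log2 scale (edgeR adjusted p = 1.7e-06). It ranged from 0.43 to 0.47, with adjusted p of at most 2.5e-05, over the 20 other settings that kept the call. These settings were other fits and other thresholds on the main fit. The interaction did not pass a log2 fold change threshold of 1. In the transcripts of GENCODE M21, 8.17% of the 50-base words of Itgb5 also occurred in Gm38317, whose counts were 489, 392 and 493 in control, 597, 506 and 484 with IL-4/13 alone, 458, 652 and 468 with Inf alone and 928, 810 and 730 in the combination. The log2 fold change of Gm38317 for the combination against Inf was 0.63 ± 0.07, so reads of the shared stretch cannot be assigned with certainty to either gene.

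Itgb1, by contrast, fell with Inf whether or not IL-4/13 was present. It had means of 1160.5 ± 17.9 CPM in control, 1127 ± 44.9 with IL-4/13 alone, 914 ± 23.3 with Inf alone and 926 ± 10.8 in the combination (SD, n = 3). All libraries with Inf lay below all libraries without it, and the log2 fold change was -0.34 ± 0.04 for Inf against control (adjusted p = 6.0e-09) and -0.28 ± 0.04 for the combination against IL-4/13 (adjusted p = 3.2e-07). The latter came to -0.249, just short of the threshold of size, without IL-4/13 library 1. Itgb3, the beta chain of αvβ3 and of the platelet receptor, had 33.9, 27.8 and 33.5 CPM in control and 35.1, 36.2 and 33.1 CPM with IL-4/13 alone. It had 43.8, 38.6 and 31.3 CPM with Inf alone and 48.7, 48.7 and 49.0 CPM in the combination. The last condition lay above all others, by 0.62 ± 0.09 against control (adjusted p = 5.1e-06) and by 0.37 ± 0.09 against Inf (adjusted p = 0.0036). Libraries of Inf and control overlapped, and the call for that pair, 0.25 ± 0.09 (adjusted p = 0.030), was lost without Inf library 1 (0.14, adjusted p = 0.21), Inf library 2 (adjusted p = 0.082) or control library 2 (0.17, adjusted p = 0.16), and in 3 of the other fits.

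The remaining beta chains were low. Itgb2, the beta chain shared by the leukocyte integrins, had 1.09, 1.49 and 1.02 CPM in control, 0.750, 1.36 and 1.10 CPM with IL-4/13 alone, 3.85, 3.46 and 5.33 CPM with Inf alone and 2.73, 2.70 and 2.16 CPM in the combination. It was higher with Inf alone by 1.81 ± 0.26 (adjusted p = 1.4e-06) and lower in the combination than with Inf alone by -0.72 ± 0.23 (adjusted p = 0.024), the latter call being lost without Inf library 3 (-0.52, adjusted p = 0.17) or combination library 3 (-0.63, adjusted p = 0.090). Its alpha chain partners Itgal, Itgam, Itgax and Itgad had at most 6 counts in any library. Of the 50-base words of Itgam, 72.4% also occurred in Gm49368, and of those of Itgad, 15.2% occurred in other genes. Reads of these stretches may not have been counted to Itgam or Itgad, so their low counts may understate them. Itgb8, which with αv activates latent TGF-β, had 1.32 to 1.66 CPM in control, 1.25 to 1.62 CPM with IL-4/13 alone, 3.31 to 4.06 CPM with Inf alone and 2.29 to 3.03 CPM in the combination. It rose by 1.30 ± 0.23 with Inf alone (adjusted p = 3.2e-05), and all libraries with Inf lay above those without it. The call for the combination against control, 0.79 (adjusted p = 0.011), was lost without combination library 1 or control library 3. Itgb7, a beta chain of gut-homing lymphocytes, had 5.09, 4.78 and 6.06 CPM in control, 4.61, 5.25 and 5.66 CPM with IL-4/13 alone, 8.04, 7.11 and 7.64 CPM with Inf alone and 6.45, 7.08 and 6.07 CPM in the combination. The libraries with Inf lay above those without it, and the call was for Inf against control (0.51 ± 0.14, adjusted p = 0.0048). Itgb4, the hemidesmosome chain, was lower in the combination than in control (-0.98 ± 0.25, adjusted p = 0.0024), at 1.15 to 4.57 CPM over the 12 libraries. Its call for the combination against IL-4/13 (-0.68, adjusted p = 0.042) was lost with DESeq2 (adjusted p = 0.052) and without combination library 3 (-0.45, adjusted p = 0.22) or IL-4/13 library 1 or 3.

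**Figure D2:**
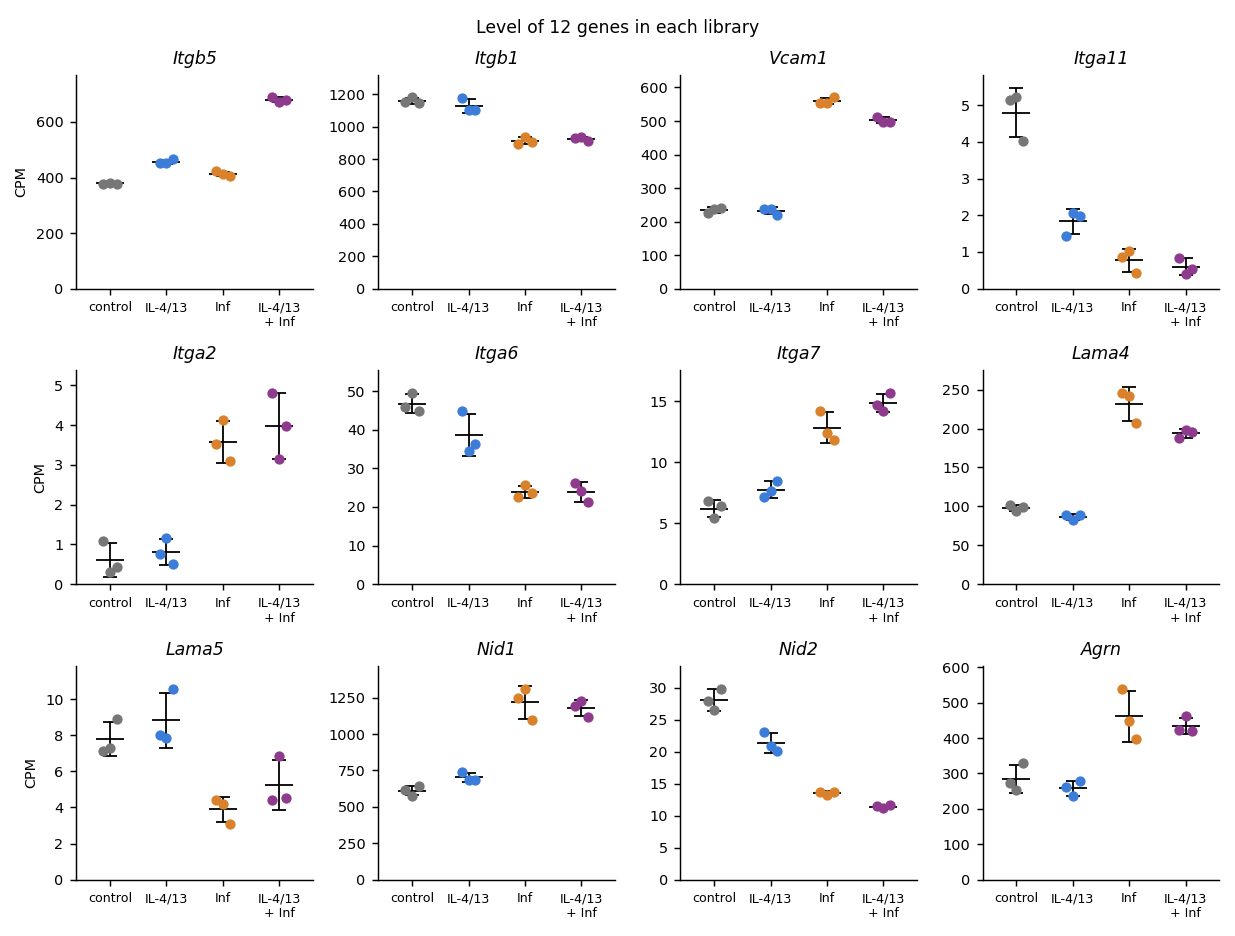
CPM of 12 members in each library (vertical axes start at 0 and differ between panels), by condition, with the mean as a horizontal line and the SD over 3 libraries as whiskers. Itgb5 is highest in the combination, at 672 to 688 CPM, Vcam1, Itga2, Itga7, Lama4, Nid1 and Agrn are higher in both conditions with Inf, and Itga11, Itga6, Lama5, Nid2 and Itgb1 are lower in them than in control.

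The laminin alpha chains also split with Inf. Lama4, the alpha chain of vascular and mesenchymal laminins, had 102, 94.3 and 99.02 CPM in control and 88.7, 82.0 and 88.6 CPM with IL-4/13 alone. It had 246, 242 and 207 CPM with Inf alone and 188, 198 and 195 CPM in the combination. The conditions did not overlap, with Inf the highest, and the log2 fold change was 1.24 ± 0.06 with Inf alone (adjusted p = 2.4e-17) and 0.98 ± 0.06 in the combination (adjusted p = 6.5e-15) against control. It was lower in the combination than with Inf alone by -0.26 ± 0.05 (adjusted p = 0.00064), and without Inf library 1, Inf library 2 or combination library 1 the value, -0.23 to -0.21, lay under the threshold of size. Lama5, an alpha chain of epithelial basement membranes, had 7.14, 7.32 and 8.88 CPM in control, 8.04, 7.84 and 10.6 CPM with IL-4/13 alone, 4.39, 4.19 and 3.09 CPM with Inf alone and 4.41, 6.86 and 4.52 CPM in the combination. It lay below all libraries without Inf in both conditions with Inf, by -0.997 ± 0.18 with Inf alone (adjusted p = 4.7e-05) and by -0.56 ± 0.17 in the combination (adjusted p = 0.012) against control, the latter call being lost without control library 3 or combination library 1 or 3 (adjusted p = 0.067 to 0.10). Lama2, the alpha chain of muscle laminin, was lower with Inf alone by -1.22 ± 0.36 (adjusted p = 0.0060) at 0.472 to 2.58 CPM, a call lost without control library 3 (-0.98, adjusted p = 0.055), while the call for the combination against IL-4/13 (-1.32, adjusted p = 0.0063) was lost without IL-4/13 library 1 (adjusted p = 0.063). Lama3, the alpha chain of the laminin that anchors epidermis, had 0, 1 and 7 counts in control and 20 to 28 counts with Inf alone, and was higher with Inf alone by a fitted log2 fold change of 3.04 ± 0.59 (adjusted p = 9.6e-05). The size of this value turned on the 7 counts of control library 3. Without that library it was 5.21 (adjusted p = 9.6e-06), and the value for IL-4/13 against control, 1.54 with an adjusted p of 0.21, became 3.70 (adjusted p = 0.026).

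Beta and gamma chains of the common laminins stayed near their control levels. Lamb1 had means of 348 CPM in control, 387 CPM with IL-4/13 alone, 336 CPM with Inf alone and 372 CPM in the combination, and Lamc1 had means of 291, 312, 279 and 268 CPM, neither with a call. The 95% interval for Inf against control was -0.17 to 0.07 for Lamb1 and -0.22 to 0.10 for Lamc1 on the log2 scale. Lamb2 was called lower in the combination against control (-0.28 ± 0.08, adjusted p = 0.0092) at means of 106 and 87.7 CPM, and the value lay at -0.25 to -0.22 without control library 1 or 3 or combination library 1. Lamb3, a beta chain of epithelial laminin, was called in no comparison at 10 to 26 counts per library. Lamc3 had 1, 1 and 2 counts in control, so its change is given as a ratio of summed counts per depth. This ratio was 9.75 (95% counting interval 3.50 to 37.7) for IL-4/13 (37 counts), 5.07 (1.71 to 20.3) for Inf (21 counts) and 20.2 (7.62 to 76.02) for the combination (85 counts). Every treated library lay above the control libraries, and Lamc3 was higher in the combination than with Inf alone (log2 fold change 1.99 ± 0.43, adjusted p = 0.00075), with 0.182 to 0.584 CPM with Inf alone and 1.35 to 1.82 CPM in the combination. No Inf library reached the level of the filter and all 3 of the combination did. Lamc3 was thus tested in this comparison only through the group where it was high. The Lamc3 call for Inf against control was lost without Inf library 2, control library 1 or control library 2 (adjusted p = 0.051 to 0.12), and that for the combination against IL-4/13 (1.03, adjusted p = 0.040) was lost with DESeq2 (adjusted p = 0.098), without the filter (adjusted p = 0.077) and without IL-4/13 library 1 or 2 or any library of the combination (adjusted p = 0.052 to 0.26).

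The linkers of the basement membrane included a pair of related genes that moved apart. Nid1, the major nidogen, had 613, 578 and 646 CPM in control and 737, 683 and 685 CPM with IL-4/13 alone. Its mean was 1219 ± 112 CPM with Inf alone and 1178 ± 56.7 CPM in the combination (SD, n = 3). The libraries with Inf lay above the others, with a log2 fold change of 0.99 ± 0.06 with Inf alone (adjusted p = 3.0e-10) and 0.94 ± 0.06 in the combination (adjusted p = 6.4e-10). Nid2, its close relative, had 27.9, 26.5 and 29.9 CPM in control and 23.1, 20.9 and 20.1 CPM with IL-4/13 alone. It had 13.8, 13.2 and 13.6 CPM with Inf alone and 11.5, 11.2 and 11.6 CPM in the combination. The 4 conditions did not overlap, and Nid2 was lower with IL-4/13 alone by -0.39 ± 0.08 (adjusted p = 0.0021), with Inf alone by -1.06 ± 0.09 (adjusted p = 1.9e-11) and in the combination by -1.30 ± 0.09 (adjusted p = 2.5e-13). Per kb, Nid1 exceeded Nid2 by 17.4 ± 0.143 times in control, 26.3 ± 0.843 times with IL-4/13 alone, 72.2 ± 7.71 times with Inf alone and 82.7 ± 5.44 times in the combination. Exons of Rtraf on the other strand cover 8.45% of Nid2, and the strand setting of the counting is not given in the sources used here. Agrn, a heparan sulfate proteoglycan, had 272, 254 and 330 CPM in control, 261, 237 and 278 CPM with IL-4/13 alone, 540, 448 and 396 CPM with Inf alone and 424, 461 and 419 CPM in the combination. It was higher with Inf alone by 0.69 ± 0.13 (adjusted p = 0.0026) and in the combination by 0.61 ± 0.13 (adjusted p = 0.0068), with no overlap between libraries with and without Inf. Hspg2 was called in no comparison, with 291 to 460 CPM in control and 231 to 366 CPM with Inf alone, and its interval for Inf against control, -0.65 to 0.16, was wide. Its log2 deviations from the group mean reached 0.35 in control library 3 and -0.40 in Inf library 3. In the same libraries the median deviation of 2273 tested genes with over 8000 exon bases was 0.03 and -0.09.

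Vcam1 had 224, 238 and 241 CPM in control and 239, 237 and 221 CPM with IL-4/13 alone. It had 554, 554 and 570 CPM with Inf alone and 513, 496 and 497 CPM in the combination. The conditions without Inf overlapped, and both lay far below those with Inf. Vcam1 was higher with Inf alone than in control by 1.25 ± 0.04 on the log2 scale, a fold of 2.39 (edgeR adjusted p = 4.9e-21), and higher in the combination than with IL-4/13 alone by 1.11 ± 0.04 (adjusted p = 1.3e-19). IL-4/13 on top of Inf gave -0.16 ± 0.04 (adjusted p = 0.0059), with no overlap of libraries but under the threshold of size. The interval for IL-4/13 against control was -0.10 to 0.07.

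The makeup of each receptor and matrix group was described as the share of each chain in the summed CPM per kb of its group. Among collagen-binding alpha chains, Itga2 made up 2.68 ± 1.59% in control, 5.35 ± 2.06% with IL-4/13 alone, 26.5 ± 3.01% with Inf alone and 33.6 ± 7.50% in the combination, and Itga11 made up 31.5 ± 3.53%, 17.4 ± 2.98%, 8.09 ± 3.01% and 7.16 ± 2.84% (SD, n = 3). The sum of the 4 chains went from 3.06 ± 0.31 CPM per kb in control to 1.67 ± 0.04 in the combination. Itga7 made up 7.12 ± 0.80% of the laminin-binding alpha chains in control, 10.1 ± 1.16% with IL-4/13 alone, 21.7 ± 1.15% with Inf alone and 24.9 ± 1.29% in the combination. The libraries with Inf held a larger share of Itga2 and of Itga7, and a smaller one of Itga11, than any library without it. Among beta chains, Itgb1 held 71.0 ± 0.33% in control and 52.5 ± 0.43% in the combination, and Itgb5 held 27.0 ± 0.12%, 31.4 ± 1.04%, 33.4 ± 0.70% and 44.8 ± 0.49% in control, IL-4/13, Inf and the combination. Lama4 was over 93% of the laminin alpha chains in all libraries, while their sum was 17.2 ± 0.63 CPM per kb in control, 15.3 ± 0.72 with IL-4/13 alone, 38.9 ± 3.67 with Inf alone and 32.7 ± 1.04 in the combination. Lamb2 was 23.3 to 25.0% of the laminin beta chains in control and 22.7 to 24.5% with Inf alone, against 19.3 to 20.4% with IL-4/13 alone and 18.7 to 19.9% in the combination. RNA shares say nothing of the amount of each receptor at the surface.

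**Figure D3:**
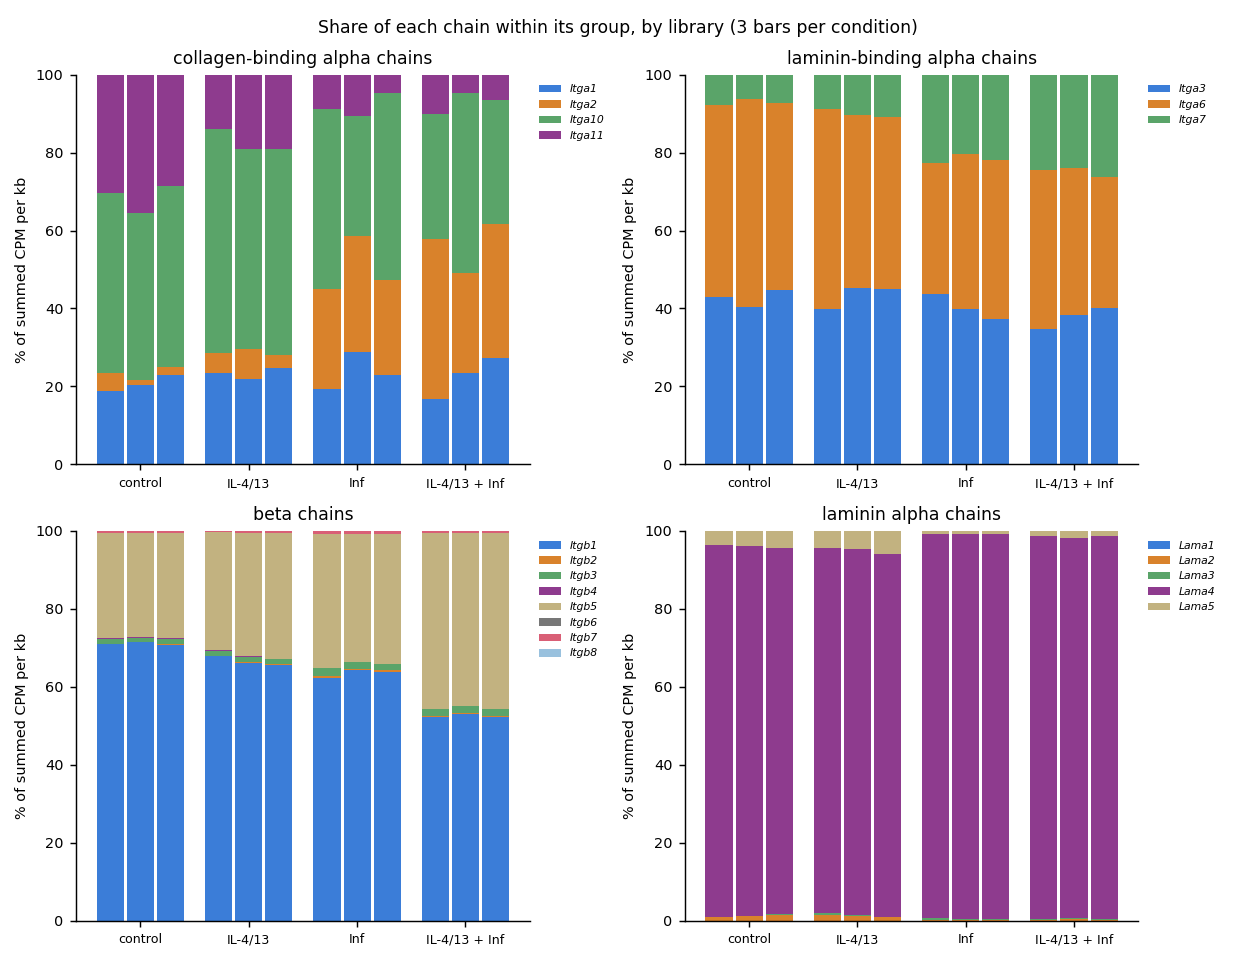
Share of each chain in the summed CPM per kb of its group (vertical axis, percent) in each of the 12 libraries, 3 bars per condition. Itga2 and Itga7 take larger shares in all libraries with Inf, Itgb5 takes 44.3 to 45.2% of the beta chains in the combination, and Lama4 fills most of the laminin alpha chains in every library.

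The response to Inf can be read from comparisons that have no library in common, Inf against control and the combination against IL-4/13. In both, 12 members were higher (among them Agrn, Itga2, Itga2b, Itga7, Itgb2, Itgb3, Itgb8, Lama4, Lamc3, Nid1 and Vcam1) and 9 lower (Itga3, Itga6, Itga8, Itga10, Itga11, Itgb1, Lama2, Lama5, Nid2), and no member was called in opposite directions. These are 63.6% of the tested members, where 19.1% of all tested genes were called in the same direction in both, 10.7% higher and 8.4% lower. Lamc3 is counted here although no control or Inf library reached the level of the filter for it. Its place in this pair and the next rests on the conditions where it was high. Both of its calls in this pair were lost in some fits. The sign was the same in 31 of 33 members (93.9%), beside 77.9% of all tested genes, and Pearson's r over the members was 0.91, with Spearman's rho 0.96. Over all tested genes r was 0.87 and rho 0.71. For IL-4/13 against control and the combination against Inf, the sign was the same in 26 of 33 members (78.8%), beside 66.9% of all tested genes. For this pair r was 0.69 and rho 0.66 over the members and 0.40 and 0.40 over all tested genes, and Itgb5 and Lamc3 were higher in both. These correlations are across genes, which are not independent replicates, and all points share the same libraries. Among the 33, 6 were called in no pairwise comparison, namely Hspg2, Itga5, Itgav, Lamb1, Lamb3 and Lamc1.

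**Figure D4:**
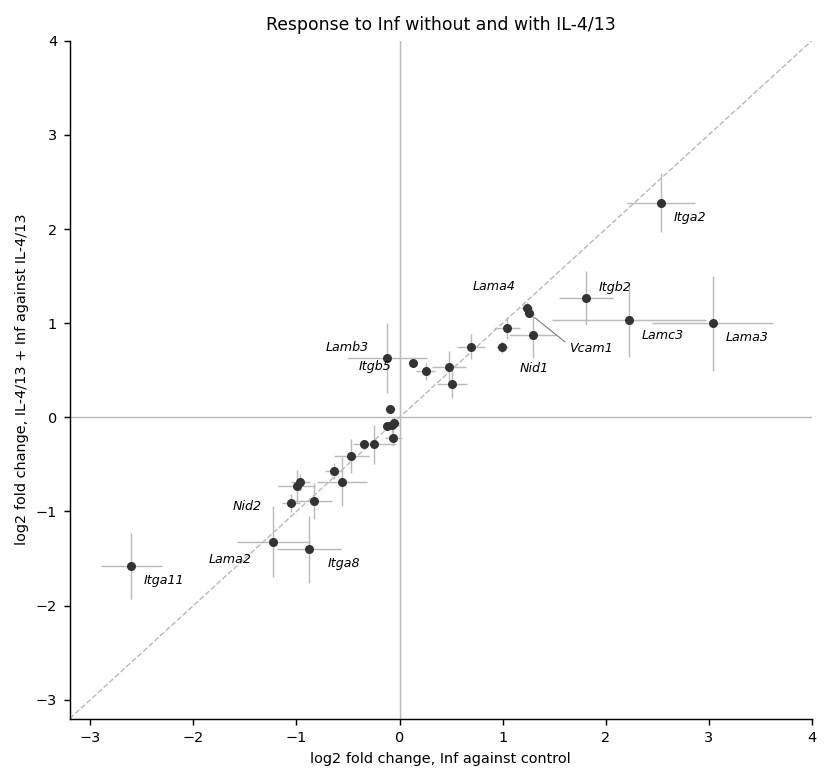
Log2 fold change of 32 tested members for Inf against control (horizontal axis) and the combination against IL-4/13 (vertical axis), with bars for the SE and a dashed line where both are equal. Most members lie near the line, among them Itga2 at 2.54 and 2.28. Itga11, at -2.60 and -1.58 with wide bars, and Itgb5, at 0.13 and 0.57 with narrow ones, lie above it. Lamc3, at 2.23 and 1.03, lies below it.

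Genes that act with these receptors were counted from lists of the pathway. Of 26 tested proteins that bind integrin tails or build focal adhesions, 2 were higher and 9 lower with Inf alone against control, where 16.3% of all tested genes were higher and 15.3% lower, with a median log2 fold change of -0.20 beside 0.01 over all genes. Vinculin (Vcl), which reinforces adhesions under load, had 318, 286 and 327 CPM in control and 197, 191 and 152 CPM with Inf alone, lower by -0.79 ± 0.08 (adjusted p = 2.9e-06). The scaffold Ilk was lower by -0.70 ± 0.16 (adjusted p = 0.00095), and the endocytic adaptor Dab2 was higher by 0.67 ± 0.05 (adjusted p = 1.0e-12). Ilk was low, with means of 6.90 CPM in control, 4.30 CPM with Inf alone and 6.56 CPM in the combination. It was higher in the combination than with Inf alone by 0.63 ± 0.16 (edgeR adjusted p = 0.0050). For IL-4/13 against control 3 of the 26 were higher and none lower, where 2.78% and 2.57% of all genes were. These were Dab2 (0.27 ± 0.05, adjusted p = 0.00043), the adaptor Nedd9 (0.62 ± 0.07, adjusted p = 3.6e-07) and Itgb1bp1, which binds the β1 tail and restrains its activation (0.52 ± 0.08, adjusted p = 2.4e-05). Nedd9 and Itgb1bp1 were also higher in the combination than with Inf alone, by 0.59 ± 0.07 and 0.66 ± 0.08. Dab2 was not, with means of 176 CPM with Inf alone and 143 CPM in the combination. Its log2 response to IL-4/13 differed with Inf by -0.56 ± 0.07 (edgeR adjusted p = 2.55e-06 for the interaction).

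Of 13 tested matrix ligands of integrins, 4 were higher and 4 lower with Inf alone against control, where 31.6% of all tested genes were called. Thrombospondin 1 (Thbs1) rose from 836, 766 and 860 CPM in control to 2345, 2254 and 1917 CPM with Inf alone (log2 fold change 1.40 ± 0.07, adjusted p = 2.1e-10). Periostin (Postn), a ligand of αvβ3 and αvβ5, had 446, 412 and 426 CPM in control, 375, 353 and 384 CPM with IL-4/13 alone, 135, 135 and 128 CPM with Inf alone and 85.0, 87.1 and 85.3 CPM in the combination. It was lower with Inf alone by -1.69 ± 0.05 (adjusted p = 1.3e-23) and did not overlap between conditions. Fibronectin (Fn1) was lower with Inf alone by -0.69 ± 0.15 (adjusted p = 0.0065). For IL-4/13 against control, 3 ligands were higher and 2 lower, where 5.35% of all genes were called. Nephronectin (Npnt), the ligand of α8β1, had 19.4, 19.7 and 18.9 CPM in control and 47.4, 52.4 and 45.6 CPM with IL-4/13 alone (1.33 ± 0.08, adjusted p = 8.8e-14), and 14.4, 15.6 and 14.6 CPM with Inf alone against 37.2, 35.0 and 40.7 CPM in the combination (1.33 ± 0.08, adjusted p = 1.6e-13). Tenascin C (Tnc) was higher with IL-4/13 alone by 0.76 ± 0.13 (adjusted p = 0.0084), and the matricellular protein Ccn2 by 0.62 ± 0.10 (adjusted p = 3.1e-05). For the combination against Inf, 4 ligands were higher and 3 lower, where 7.55% and 7.00% of all genes were. Thrombospondin 2 (Thbs2) was lower there by -1.08 ± 0.05 (edgeR adjusted p = 8.5e-14). Its log2 response to IL-4/13 differed with Inf by -0.71 ± 0.08 (edgeR adjusted p = 1.5e-06 for the interaction).

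Of 11 tested basement membrane collagens and partners, 2 were higher and 6 lower with Inf alone against control, where 16.3% of all tested genes were higher and 15.3% lower, with a median log2 fold change of -0.30 beside 0.01 over all genes. Col15a1, a collagen that ties the basement membrane to the stroma, had 4.74, 4.65 and 4.62 CPM in control, 1.88, 1.68 and 1.62 CPM with IL-4/13 alone and 0.465, 0.390 and 0.849 CPM with Inf alone. It was lower with IL-4/13 alone by -1.43 ± 0.24 (adjusted p = 0.00014) and with Inf alone by -3.05 ± 0.29 (adjusted p = 4.1e-10). Tinagl1, a laminin-binding matrix protein, was lower with Inf alone by -0.84 ± 0.05 (adjusted p = 2.9e-15), and the laminin-related Ntn1 was higher by 0.71 ± 0.07 (adjusted p = 1.9e-09). Fibulin 2 (Fbln2), which binds nidogen and laminin, was lower with IL-4/13 alone by -0.35 ± 0.04 (adjusted p = 3.0e-06) and in the combination than with Inf alone by -0.39 ± 0.04 (adjusted p = 2.2e-07).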

How the data were processed

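RNA-seq was carried out on 12 libraries of 3T3-L1 cells, 3 per condition. According to the protocols, RNA was purified with a kit, polyadenylated transcripts were selected and stranded libraries were made. The authors deposited raw counts of reads per gene, without normalization, for 56941 genes. The submitters' processing notes name STAR, featureCounts and GRCm39, and the versions, the annotation and the strand setting are not given in the sources used here. The doses and the time are those the study gives.

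The members and all gene lists were chosen with earlier results of these data known. The counts were tested with edgeR 4.0.16 (limma 3.58.1, R 4.3.3) by a robust quasi-likelihood test. Genes passed filterByExpr (minimum count 10, minimum total 15), TMM factors were used, all 12 libraries entered 1 fit with a term per condition, with Benjamini-Hochberg adjustment over 14810 genes within each of 6 comparisons. The study's methods name DESeq2 for these libraries and no thresholds, so DESeq2 1.42.0 was an alternative and the thresholds are those of its pseudobulk comparison. CPM used the effective library size. Alternatives were DESeq2, its size factors, library size alone, no filter or a stricter one, the compared groups only, a replicate block, each library left out, and other thresholds. SE was derived from the F statistic. No label says that libraries came from separate cultures, so p-values measure the spread between these libraries, which may be technical. Intervals of count ratios cover counting error only. Libraries shared replicate numbers, but these did not pair them. Values in every library were given for members called at a log2 fold change of at least 0.5 with at least 5 CPM in 1 group and for Vcam1, and ranges or counts for the others, except that values of Itga2, Itga11 and Itgb2 in every library were added after they were seen, and pathway genes were named from the 3 largest called changes of a list in a comparison. On simulated counts for IL-4/13 against control, with 14531 genes tested and 200 changed by a log2 fold change of 1, edgeR recovered 82.5% and called 9 others. For the interaction, with 14530 genes tested and 200 changed by the same size, it recovered 76% and called 3 others. Smaller changes were not simulated. Shared sequence was the share of 50-base words of the longest transcript found in other genes of GENCODE M21 (GRCm38). Python 3.11.15, pandas 2.3.3 and matplotlib 3.10.9 were used. The single-cell, protein and animal data were not analysed here. The counts cover all 33 tested members, of which 1 is not reported by itself here.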

Additional observations from a re-analysis of the deposited data

Results flagged for a closer look

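The log2 response of Itgb5 to IL-4/13 was larger with Inf than without it, by 0.45 (edgeR adjusted p = 1.7e-06 for the interaction). It was the 1 difference of this kind called among the 33 tested members. That share, 3.03%, was near the 3.11% of all tested genes called. Itgb5 had 377 to 381 CPM in control, 452 to 465 CPM in IL-4/13, 407 to 422 CPM in Inf and 672 to 688 CPM in IL-4/13 + Inf, so all 3 libraries with both treatments lay above the 9 others. The interaction for Gm38317, which shares 8.17% of the 50-base words of Itgb5, was 0.34 ± 0.11 with an adjusted p of 0.084.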

How the results depend on the processing

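Of 84 called values of members over the 6 comparisons, none changed direction under any alternative that tested it. The filter at a mean of 50 counts left 29 of them untested and the fits of the compared groups alone, which give no interaction, left out 2, both of Lamc3. Of the 84, 67 kept the call in every fit that tested them, 46 of these being tested in every fit. Fits with other tools, scaling, filters, samples or a replicate block lost 8 calls over 4 values, and fits that left out 1 library lost 51 calls over 17 values. With the combination standing for IL-4/13 + Inf, replicate numbers did not pair the libraries. The correlation of deviations over 18 pairs with the same number was -0.15 to 0.05, a library matched its own number best in 6 of 36 cases, and the replicate block lost 0 of the 84 calls, with 14 members higher and 10 lower for Inf against control. At a log2 fold change threshold of 1 the members higher and lower were 1 and 1 for IL-4/13 against control, 8 and 3 for Inf against control, 6 and 5 for the combination against control, 1 and 0 for the combination against Inf, 5 and 3 for the combination against IL-4/13 and 0 higher for the interaction. With a filter at a mean of 50 counts, which tests fewer genes, 9 were higher for Inf against control, 8 higher for the combination against control and 6 lower for the combination against IL-4/13. At an adjusted p under 0.01, 1 was lower for the combination against Inf. Leaving out each library in turn gave 1 to 3 lower for the combination against Inf, and 0 to 1 lower for the interaction, where Nid1 was called at -0.31 without Inf library 3 and Lama3 at -4.20 without control library 3. The shares of all tested genes called at these other settings are not given here. The counts therefore show how calls of members moved, and not how members compared with all genes. Members with fewer than about 50 counts per library rest on few reads, and those with calls lost without 1 library are named with their values above.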

Other observations

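A further list held laminin receptors that are not integrins, tetraspanins, which hold integrins in clusters, and Cd47. Of its 15 tested genes, 4 were higher and 1 lower for Inf against control. These 5 of the 15 were a share near the 31.6% of all tested genes called. Cd47, which binds thrombospondin and associates with αvβ3, was higher by a log2 fold change of 1.28 ± 0.04 (edgeR adjusted p = 3.4e-21), and the syndecan Sdc2 was lower by -0.73 ± 0.05 (adjusted p = 6.9e-14) and Sdc4 higher by 0.43 ± 0.04 (adjusted p = 8.5e-10). Cd47 was also higher with IL-4/13 alone, by 0.34 ± 0.04 (adjusted p = 1.2e-06).

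Of 7 tested adhesion molecules for leukocytes other than Vcam1, 2 were higher and 2 lower for Inf against control, where 31.6% of all tested genes were called. Alcam, a ligand of T cell CD6, had 115, 106 and 114 CPM in control, 135, 136 and 144 CPM with IL-4/13, 75.1, 76.4 and 74.7 CPM with Inf and 127, 126 and 133 CPM with both. It was lower with Inf by -0.56 ± 0.05 (edgeR adjusted p = 9.8e-11), and its log2 response to IL-4/13 was larger with Inf than without it by 0.46 ± 0.07 (adjusted p = 6.4e-05). P-selectin (Selp), which captures rolling leukocytes on endothelium, had 1.46, 1.51 and 1.39 CPM with Inf and 4.76, 4.50 and 6.34 CPM with both, a difference of 1.82 ± 0.27 (adjusted p = 7.2e-06), and at most 3 counts in any library of control. For both treatments against Inf, 2 of the 7 were higher and 1 lower, where 7.55% and 7.00% of all tested genes were. The lower one, Jam2, changed by -1.35 ± 0.25 (edgeR adjusted p = 0.00014), with means of 4.64 CPM with Inf and 1.80 CPM with both. Icam5, an adhesion molecule known from neurons, was higher with Inf by 0.87 ± 0.29 (adjusted p = 0.015), at low means of 1.27 CPM in control and 2.31 CPM with Inf.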
